A study of Mus musculus with 9 samples.

Results

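The 6 actin genes of the mouse were followed in gastrocnemius, a calf muscle, through unloading and reloading of the hind limbs. They were taken by gene symbol (Acta1, Acta2, Actc1, Actb, Actg1 and Actg2), matched by Ensembl identifier to the count table, and are 6 of its 55487 genes. All 6 passed the filter on low counts that left 14851 genes for testing. Polyadenylated RNA was sequenced in 9 libraries of wild-type C57BL/6 mice (C57BL/6J per the study) labelled male. The Control group (4 libraries) came from mice in normal cages, the Unloading group (2 libraries) from mice whose hind limbs had borne no weight for 10 days, and the Reloading group (3 libraries) from mice on day 1 after return to normal cage activity, which followed 10 days of unloading per the study. No genetic change or drug separates the groups, the labels give no age, and female mice are named in the methods of the study where the labels say male. The muscle was taken whole, with its vessels, nerves and connective tissue. Nothing in the labels says that libraries of a group came from separate animals, so p-values measure the spread between these libraries only.

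Actin is the monomer of the thin filament of muscle and of the cytoskeleton of every other cell. Mammals carry a small family of nearly identical actins: the sarcomeric α-skeletal (Acta1) and α-cardiac (Actc1) forms, the smooth muscle α (Acta2) and γ (Actg2) forms, and the cytoplasmic β (Actb) and γ (Actg1) forms. Actc1 is the main sarcomeric actin of the heart and is also used by skeletal muscle before birth and during regeneration, while Acta1 is the form of the adult fibre. Many actin genes are read by the serum response factor SRF, which binds a DNA motif called the CArG box and is itself tied to the actin pool through coactivators that bind actin monomers.

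In GRCm38 all 6 genes lie on the minus strand: Acta1 (ENSMUSG00000031972) at chr8:123891769-123894751, Actc1 (ENSMUSG00000068614) at chr2:114047282-114053548, Acta2 (ENSMUSG00000035783) at chr19:34241090-34255590, Actg2 (ENSMUSG00000059430) at chr6:83512905-83536265, Actb (ENSMUSG00000029580) at chr5:142903115-142906754 and Actg1 (ENSMUSG00000062825) at chr11:120345690-120348542.

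How alike the members are bears on every count given here. In the reference transcripts (GENCODE M21, GRCm38) the α forms code for 377 residues, Actg2 for 376, and Actb and Actg1 for 375. Acta1 and Actc1 differed at 4 protein positions, Acta2 and Actg2 at 3, and Actb and Actg1 at 4, while Acta1 and Actb differed at 26. The coding sequences were further apart than the proteins, with an identity of 86.3% between Acta1 and Actc1, 84.2% between Acta2 and Actg2 and 88.6% between Actb and Actg1. No stretch of 50 bases of the Actc1 or the Actg2 transcript stood unchanged in a transcript of another gene, and the share of such stretches was 0.352% for Acta2, 2.22% for Acta1 and 14.2% for Actb. It was 56.7% for Actg1, whose processed pseudogenes carry long unchanged runs of it. The authors' counting leaves out a read pair that aligns to several places, so an Actg1 count covers only the part of the transcript that can be told apart.

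The promoters are shown because they hold the element that the family is known for. RefSeq promoter entries (GRCm38.p6) matched 4 of the 6 genes: Acta1, Actc1, Acta2 and Actg1. The 250 bases before each RefSeq transcription start, which lies inside the Ensembl gene for Actc1, Acta2 and Actg1 and beyond its end for Acta1, are given 5′ to 3′, with capitals marking CArG boxes (CC, then 6 bases that are A or T, then GG) and CArG-like boxes, in which 1 of those 6 bases is G or C. Both motifs read the same on either strand.
Acta1, chr8:123894776-123895025, minus strand: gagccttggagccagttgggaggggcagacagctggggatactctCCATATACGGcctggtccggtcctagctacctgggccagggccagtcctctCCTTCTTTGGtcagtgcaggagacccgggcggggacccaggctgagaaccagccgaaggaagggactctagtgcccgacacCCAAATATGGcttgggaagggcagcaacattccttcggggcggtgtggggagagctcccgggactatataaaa
Actc1, chr2:114052876-114053125, minus strand: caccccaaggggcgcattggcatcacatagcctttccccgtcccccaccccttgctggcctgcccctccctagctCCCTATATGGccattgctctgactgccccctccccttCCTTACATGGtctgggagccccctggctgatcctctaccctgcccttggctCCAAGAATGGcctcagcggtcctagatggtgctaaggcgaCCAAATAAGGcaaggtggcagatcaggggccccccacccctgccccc
Acta2, chr19:34255374-34255623, minus strand: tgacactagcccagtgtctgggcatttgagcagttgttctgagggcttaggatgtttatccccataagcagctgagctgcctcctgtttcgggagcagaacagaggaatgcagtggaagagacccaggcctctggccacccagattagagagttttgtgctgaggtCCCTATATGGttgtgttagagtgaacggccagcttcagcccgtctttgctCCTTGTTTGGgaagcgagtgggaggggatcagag
Actg1, chr11:120348496-120348745, minus strand: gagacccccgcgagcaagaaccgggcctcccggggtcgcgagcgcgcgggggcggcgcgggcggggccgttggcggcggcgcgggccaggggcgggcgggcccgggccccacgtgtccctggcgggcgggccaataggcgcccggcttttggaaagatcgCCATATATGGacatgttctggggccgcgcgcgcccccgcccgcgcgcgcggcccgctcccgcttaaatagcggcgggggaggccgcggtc
A full CArG box began 73 bases before the start of Acta1, 47 before that of Actc1 and 90 before that of Actg1, and none lay in the window of Acta2. CArG-like boxes lay 205 and 154 bases before Acta1, 175, 138 and 87 before Actc1, and 84 and 34 before Acta2. Of 32851 RefSeq promoters cut to the same window, 1.47% held a CArG box, 8.59% held a box of either kind and 0.670% held at least 2. The MCAT motif (CATTCC on either strand), which TEAD factors bind, lay 46 bases before Acta1 and 146 before Acta2 and overlapped no box, against 12.6% of all the promoters. These are matches of letters and say nothing of binding in these muscles.

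Library totals ranged from 9252443 to 19612101 read pairs in genes. Of the 6 actins, Acta1 had 205791 to 412559 read pairs per library, Actc1 863 to 4654, Actb 1969 to 4565, Actg1 538 to 1281, Acta2 179 to 888 and Actg2 42 to 167. Skin genes were found in Control 2 and Reloading 1 (the summed CPM of 7 skin markers was 296 and 135, against 2.31 to 4.29 in the others). Some values of the actins are therefore also given with such libraries left out, whereas values of the marker genes are not. Levels are given as CPM, the read pairs of a gene per 1000000 of its library, with library sizes adjusted by TMM factors. With library totals alone as the scale, the median over tested genes moved on the log2 scale from 0.03 to 0.27 between Unloading and Reloading, and from 0.01 to 0.25 between Control and Reloading. In whole tissue, fewer cells of a type and less RNA per cell cannot be told apart. The labelled tissue held its defining transcripts: the 9 skeletal fibre markers summed to between 88814 and 134044 CPM, while of the 7 cardiac markers Nppa, Nppb, Myl7, Mybpc3 and Tnni3 were at or under 0.572 CPM in every library, Myh6 at 1.58 to 3.79 and Ryr2 at 0.674 to 2.48.

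Between 1.59% and 3.00% of all read pairs in genes fell on the 6 actins. The share was 2.72% ± 0.256 (SD, n = 4) in Control, 1.68% ± 0.132 (n = 2) in Unloading and 1.84% ± 0.0904 (n = 3) in Reloading, and no Unloading or Reloading library reached the lowest Control library, at 2.49%. Acta1 made up nearly all of it. Divided by exon length, Acta1 stood at 18305 CPM per kilobase in Control, and was 86.4 to 95.2 times the next actin in the Control libraries, 133 and 146 times in Unloading and 66.3 to 92.6 times in Reloading.

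The order below Acta1, on the per-kilobase scale, changed with load. In each of the 4 Control libraries it ran Actc1, Actb, Actg1, Acta2, Actg2, with means of 201, 87.8, 24.6, 9.83 and 6.96 CPM per kilobase. In both Unloading libraries Actb came before Actc1, at 81.6 against 49.8. Reloading was divided, since Actc1 stood above Actb in Reloading 1 (163 against 120) and below it in Reloading 2 (92.5 against 117) and Reloading 3 (78.1 against 113), so that the means of 111 for Actc1 and 117 for Actb did not differ beyond their spread. The ratio of Actc1 to Actb per kilobase was 2.17 to 2.42 in Control, 0.499 and 0.718 in Unloading and 0.692 to 1.35 in Reloading. Acta2 and Actg2, the lowest members, lay 1.26-fold to 1.58-fold apart in Control, 4.36-fold and 2.71-fold in Unloading and 4.91-fold to 6.00-fold in Reloading.

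**Figure D1:**
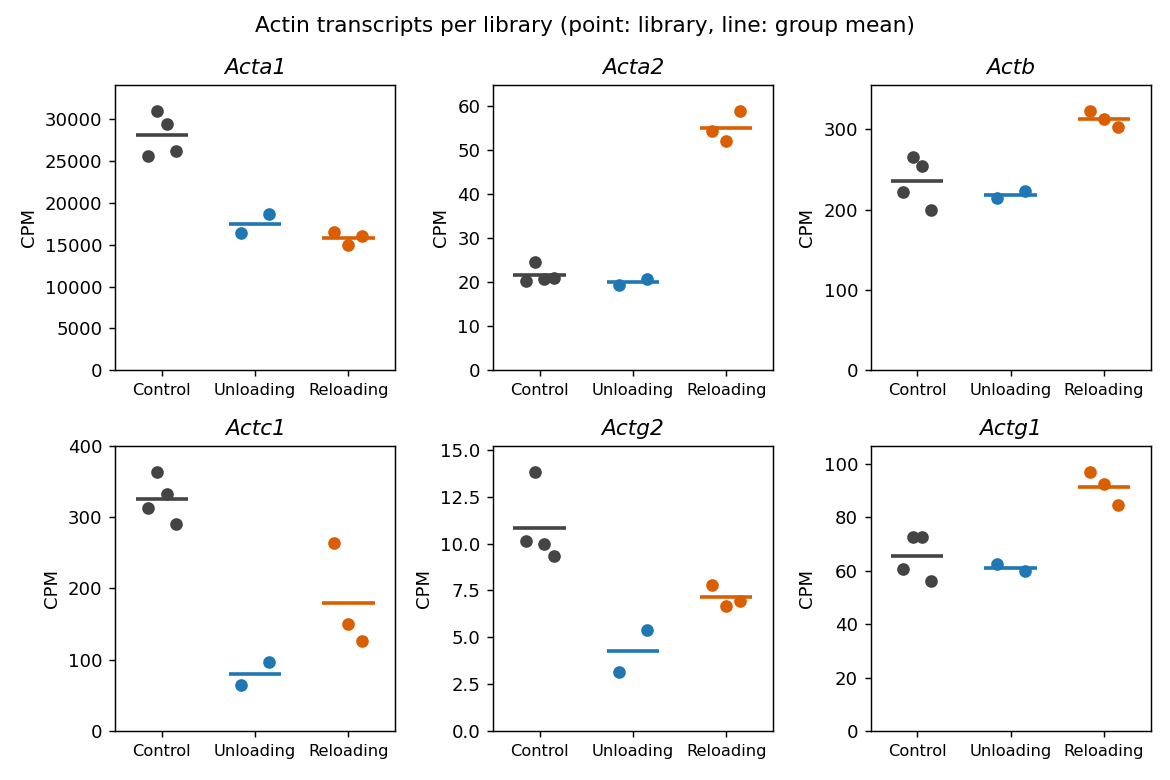
Each panel plots one actin, with the 9 libraries on the horizontal axis by group and CPM on a vertical axis that starts at 0. Points are libraries and lines are group means. Acta1, Actc1 and Actg2 are highest in Control, whereas Acta2, Actb and Actg1 are highest in Reloading.

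Unloading against Control addresses what disuse does to the actins. Of the 6, 3 were lower and none was higher, among all tested genes of which 9.90% passed the threshold (4.40% higher and 5.50% lower). These 3 were both sarcomeric actins and Actg2. The median log2 fold change of the 6 was -0.40, against -0.0038 for all tested genes.

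Acta1, the actin of the adult fibre, had 25679, 31029, 29478 and 26283 CPM in Control 1 to Control 4 and 16413 and 18635 CPM in Unloading 1 and Unloading 2. The groups did not overlap. It fell by 0.68 on the log2 scale (SE 0.09, adjusted p = 0.000698 by edgeR's quasi-likelihood test, which gives every adjusted p here). Actc1 fell furthest of the family. It had 313, 364, 333 and 291 CPM in the Control libraries and 64.6 and 96.5 CPM in the Unloading libraries, which the fit put at -2.01 on the log2 scale (SE 0.24, adjusted p = 0.000301).

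Actg2, the γ form of visceral smooth muscle, is a low transcript here, with 42 to 167 read pairs per library. It had 10.15, 13.8, 10.0 and 9.35 CPM in Control and 3.14 and 5.41 CPM in Unloading, again without overlap (log2 fold change -1.31, SE 0.21, adjusted p = 0.00197). The other 3 members stayed close to Control. Acta2, the α form of vascular smooth muscle, had 20.2 to 24.5 CPM in Control and 19.3 and 20.7 CPM in Unloading (log2 fold change -0.11, 95% interval -0.35 to 0.13, adjusted p = 0.516). Actb had 199 to 266 CPM in Control and 214 and 223 CPM in Unloading (-0.11, -0.35 to 0.13, adjusted p = 0.534), and Actg1 had 56.1 to 72.7 CPM against 62.4 and 59.99 CPM (-0.10, -0.35 to 0.15, adjusted p = 0.580). For these 3 the groups overlapped, and no interval reached further than 0.35 from 0.

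Reloading against Unloading addresses the first day of renewed load. Of the 6, 5 were higher and none was lower, where 37.5% of all tested genes passed (18.5% higher and 19.0% lower). The median log2 fold change of the 6 was 0.64, against 0.03 for all tested genes. The member that did not pass was Acta1.

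Acta2 changed most. It had 54.2, 52.1 and 58.8 CPM in Reloading 1 to Reloading 3, against 19.3 and 20.7 CPM in Unloading, and the fitted log2 fold change was 1.46 (SE 0.10, adjusted p = 1.05e-07). Actc1 had 264, 149.6 and 126 CPM in Reloading against 64.6 and 96.5 CPM in Unloading, without overlap but with a wide spread inside Reloading, where the SD was 40.8% of the mean (log2 fold change 1.15, SE 0.24, adjusted p = 0.00161). Reloading 1, one of the 2 libraries with skin transcripts, was the high one, and without both of them the value was 0.77 (adjusted p = 0.00133).

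The cytoplasmic actins rose by a like amount. Actb had 323, 312 and 302 CPM in Reloading against 214 and 223 CPM in Unloading (log2 fold change 0.52, SE 0.10, adjusted p = 0.00129). Actg1 had 97.1, 92.6 and 84.7 CPM against 62.4 and 59.99 CPM (0.58, SE 0.11, adjusted p = 0.000731). All Reloading libraries lay above all Unloading libraries for both genes.

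Actg2 had 7.82, 6.65 and 6.95 CPM in Reloading against 3.14 and 5.41 CPM in Unloading (log2 fold change 0.70, SE 0.22, adjusted p = 0.0199). That call rested on single libraries, since it was 0.64 (adjusted p = 0.0577) without Reloading 1 and 0.39 (adjusted p = 0.217) without Unloading 1. Acta1 had 16585, 14941 and 16054 CPM in Reloading against 16413 and 18635 CPM in Unloading, and the groups overlapped (log2 fold change -0.14, 95% interval -0.38 to 0.09, adjusted p = 0.251). With library totals alone as the scale the sign of the Acta1 value turned, to 0.10 (adjusted p = 0.369).

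Reloading against Control asks how far the actins stood from the normal cage after a day of load, and it shares its libraries with the comparisons above. Here all 6 actins passed, 3 higher and 3 lower, where 43.5% of all tested genes did (22.1% higher and 21.3% lower). The log2 fold changes were 1.35 for Acta2 (SE 0.08, adjusted p = 1.26e-08), 0.48 for Actg1 (SE 0.09, adjusted p = 0.000521) and 0.41 for Actb (SE 0.09, adjusted p = 0.00127). They were -0.83 for Acta1 (SE 0.08, adjusted p = 1.51e-06), -0.86 for Actc1 (SE 0.19, adjusted p = 0.00231) and -0.61 for Actg2 (SE 0.17, adjusted p = 0.00957). The Actc1 value was -1.23 without Reloading 1 (adjusted p = 1.00e-05), and its adjusted p was 0.0542 in a robust fit. With library totals alone as the scale the Actg2 value was -0.37 and did not pass (adjusted p = 0.0868).

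**Figure D2:**
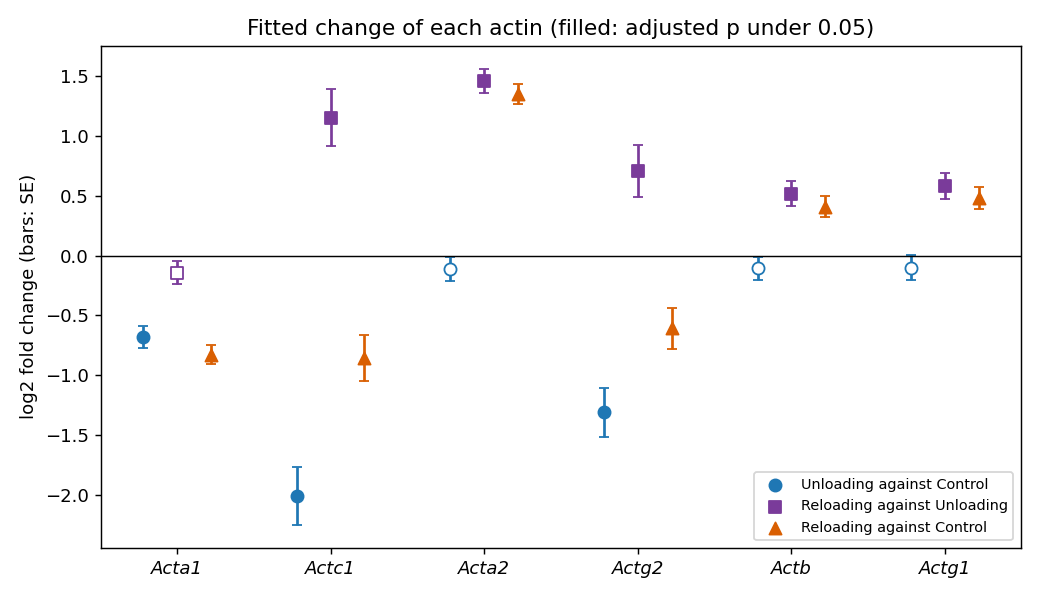
Fitted log2 fold changes (vertical axis) with their SE as bars for the 6 actins in 3 comparisons. Filled marks passed an adjusted p of 0.05, and open marks did not: Acta1 for Reloading against Unloading, and Acta2, Actb and Actg1 for Unloading against Control.

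The share of each isoform in the read pairs of the 6 actins needs no scaling between libraries. The Acta1 share was 97.7% ± 0.101 (SD, n = 4) in Control, 97.9% ± 0.0291 (n = 2) in Unloading and 96.1% ± 0.411 (n = 3) in Reloading. The lowest Acta1 share in Control was 97.6% and the highest in Reloading was 96.5%, and the mean in Reloading was 1.62 percentage points under Control and 1.76 under Unloading. Control and Unloading overlapped, and differed by 0.138 percentage points.

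The makeup of the remainder moved more. The Actc1 share was 1.13% ± 0.0475 in Control, 0.446% ± 0.0861 in Unloading and 1.08% ± 0.394 in Reloading, where single libraries had 1.52%, 0.962% and 0.760%. The Actb share was 0.816% ± 0.0505 in Control, 1.22% ± 0.0774 in Unloading and 1.90% ± 0.0996 in Reloading, and the Actg1 share 0.227% ± 0.0133, 0.343% ± 0.0400 and 0.555% ± 0.0434. Both cytoplasmic actins thus held a larger share in each Unloading library than in any Control library although their CPM overlapped, while the sarcomeric total was lower. The Acta2 share was 0.0751% ± 0.00415 in Control, 0.112% ± 0.00469 in Unloading and 0.334% ± 0.0206 in Reloading. The Actg2 share was 0.0375% ± 0.00462, 0.0236% ± 0.00684 and 0.0432% ± 0.0017.

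The 95% Wilson interval of a library's share was at most 0.172 percentage points wide for Acta1, 0.119 for Actb, 0.103 for Actc1, 0.0651 for Actg1, 0.0489 for Acta2 and 0.0180 for Actg2. Read pairs carry no molecular identifiers, so these intervals cover counting error only. An exact two-sided permutation test of the mean share cannot go below p = 0.133 for 2 libraries against 4, 0.200 for 3 against 2 or 0.0571 for 3 against 4. That smallest p was reached by all 6 actins for Reloading against Unloading, by 5 (not Acta1, exact p = 0.267) for Unloading against Control, and by Acta1, Acta2, Actb and Actg1 for Reloading against Control, where Actc1 (exact p = 0.857) and Actg2 (exact p = 0.171) overlapped. Adjusted over the 18 tests, no exact p was under 0.225. Reaching the smallest p says only that the groups did not overlap. The shares are parts of the same total, so a lower Acta1 share raises the others, and these are not separate results. With Acta1 left out of the sum, Actc1, Actg1 and Actg2 overlapped for Reloading against Unloading. The changes of Actb and Actg1 were then -8.13 and -1.72 percentage points.

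With Acta1 left out of the sum, Actc1 held 49.5% ± 1.02 of the remaining pairs in Control, 20.8% ± 4.29 in Unloading and 27.2% ± 7.18 in Reloading. Actb held 35.7% ± 0.960, 56.9% ± 2.83 and 48.8% ± 4.81. Acta2 held 3.29% ± 0.252, 5.20% ± 0.148 and 8.64% ± 1.45, with no overlap between any of the groups. As read pairs not divided by length, the largest of the minor actins was Actc1 in every Control library and Actb in every Unloading and Reloading library, while per kilobase Actc1 was the larger in Reloading 1.

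**Figure D3:**
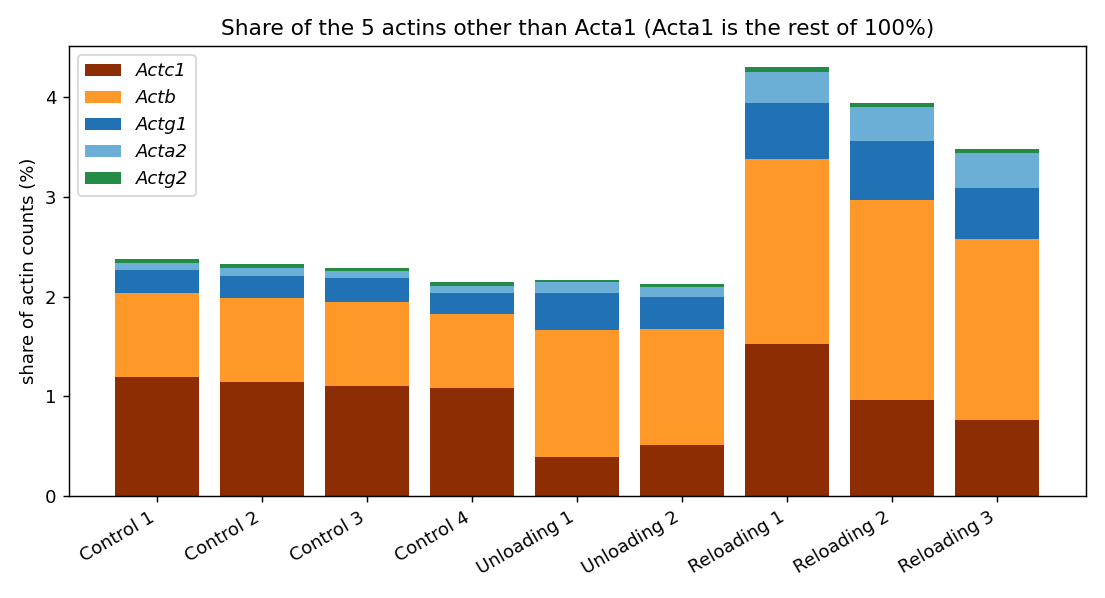
Stacked bars give, for each of the 9 libraries, the share of the read pairs of the 6 actins (vertical axis, percent, from 0) that fell on each of the 5 actins other than Acta1. The Unloading bars are nearly as high as the Control bars with less Actc1 and more Actb, and the 3 Reloading bars are higher, with Acta1 shares of 95.7% to 96.5%.

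The members fell into groups by their pattern over the 9 libraries, given here as Pearson correlations of log2 CPM, a description over libraries that share the group differences. Actb and Actg1 had r = 0.99 with each other, and each had r of at least 0.90 with Acta2. Actc1 and Actg2 had r = 0.95, and Acta1 had r = 0.76 with Actc1 and 0.75 with Actg2. Between Acta1 and Acta2 it was -0.64.

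Among 9862 other named genes with a mean log2 CPM of at least 2, those most like Acta1 were Tpm2 (r = 0.995), which codes for β-tropomyosin of the thin filament, and 2 mitochondrial genes, Cox7a1 (0.992) of cytochrome c oxidase and Sdhc (0.992) of succinate dehydrogenase. Tpm2 had 4923 to 5845 CPM in Control, 2916 and 3426 CPM in Unloading and 2473 to 2725 CPM in Reloading. Most like Acta2 were Atp1b1 (0.998), a subunit of the sodium pump, Lamb2 (0.994), a laminin chain, and Actn2 (0.993), the α-actinin of the Z-disc. Atp1b1 had 113 to 146 CPM in Control, 112 and 120 CPM in Unloading and 284 to 297 CPM in Reloading.

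For Actc1 they were Sspn (0.974), which codes for sarcospan of the dystrophin complex, Igsf3 (0.953) and Apbb2 (0.944). For Actb they were Bcl7a (0.985), Arvcf (0.981) and Ext1 (0.980), and for Actg1 Fscn1 (0.985), the actin bundler fascin, Fam43a (0.984) and Egfl7 (0.983), an endothelial secreted protein. For Actg2 the nearest was Gm4760 (0.990), a processed pseudogene of the cytoplasmic actins on chromosome X, before Bcs1l (0.982) and Dusp22 (0.975).

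The pseudogene led to a wider look, chosen after its values were seen. Transcripts that align to an actin coding sequence over at least 500 bases at 75% identity or more belonged to 41 other genes of the count table, of which 38 are pseudogenes. Of these 38, 12 were tested, with 77 to 5104 read pairs each over all libraries, and all 12 resemble a cytoplasmic actin most (8 Actg1 and 4 Actb, at 83.4% to 99.6% identity).

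The pseudogenes and the genes they resemble had different values, a difference that was not itself tested. In Unloading against Control, 8 of the 12 were lower and none was higher, where 5.50% of all tested genes were lower. Their median log2 fold change was -1.16, beside a value of -0.10 for Actg1 and -0.11 for Actb. Gm47692 had 56.6, 62.0, 65.7 and 53.3 CPM in Control and 24.9 and 27.3 CPM in Unloading (log2 fold change -1.18, SE 0.11, adjusted p = 4.41e-05). Gm8543 had 33.9, 36.7, 39.2 and 27.2 CPM in Control and 12.4 and 14.2 CPM in Unloading (-1.36, SE 0.13, adjusted p = 7.51e-05). Without Unloading 1 the number was 3 of 12, with 121 tested genes called in all.

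In Reloading against Unloading 7 of the 12 were higher and none lower (median 0.76; 3 without Unloading 1), and in Reloading against Control 3 were lower and none higher (median -0.36). Of all tested genes, 18.5% were higher in the former comparison and 21.3% were lower in the latter. Gm4760 had 11.6, 13.8, 11.4 and 10.7 CPM in Control, 4.19 and 6.39 CPM in Unloading and 7.98, 8.03 and 7.75 CPM in Reloading. Over the 9 libraries, the correlation of log2 CPM with Actg2 was 0.36 to 0.99 for the 12, and the correlation with Actg1 was -0.13 to 0.57. It was 0.37 to 0.94 with Actc1 and 0.20 to 0.88 with Acta1, so the likeness was not particular to Actg2. As read pairs, not divided by length, Actc1 had 26.3 to 33.2 for each pair of Actg2 in Control, 17.8 and 20.5 in Unloading and 18.2 to 33.7 in Reloading. Whether pairs of one actin were counted to another or to a pseudogene was not tested.

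Summed, the pairs of the 12 pseudogenes came to 137 CPM ± 18.1 (n = 4) in Control, 58.9 ± 8.16 (n = 2) in Unloading and 90.5 ± 4.36 (n = 3) in Reloading. Adding the 8 that resemble Actg1 to it gave 179.7 CPM ± 23.2 in Control, 111 ± 4.24 in Unloading and 166 ± 5.38 in Reloading, where Actg1 alone had 65.5 ± 8.39, 61.2 ± 1.67 and 91.5 ± 6.28. On that sum both Unloading libraries (108 and 114 CPM) lay under the lowest Control library (153 CPM), whereas for Actg1 alone those groups overlapped. For Actb the same sum changed little, from 235 to 258 CPM in Control, from 219 to 228 in Unloading and from 312 to 329 in Reloading.

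**Figure D4:**
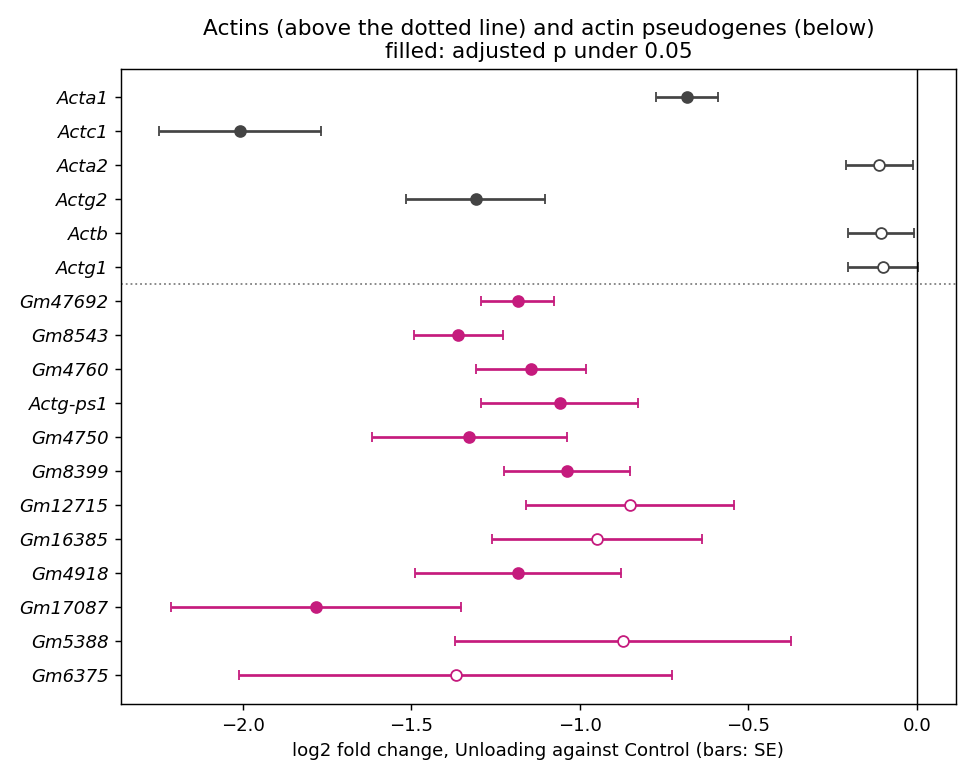
Log2 fold changes for Unloading against Control (horizontal axis, bars are SE) of the 6 actins above the dotted line and the 12 tested actin pseudogenes under it. Filled points passed an adjusted p of 0.05. All 12 pseudogenes lie left of 0, from -0.85 to -1.78, and 8 are filled, while Actb and Actg1 lie near 0.

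Other overlaps were smaller. Actg1 shares 83 and 64 exon bases with the small RNA genes Gm23419 and Mir6935, which had no count in any library. Gm20388 and A530058N18Rik, on the other strand of Acta1 and Actc1, share no exon base with them and had at most 1 read pair.

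Whole muscle holds vessels and immune cells, so their markers are given beside the members that rise with them. The 9 tested smooth muscle markers included 6 higher and 1 lower in Reloading against Control, and 7 higher and 1 lower against Unloading. Of all tested genes, 22.1% were higher and 21.3% lower against Control, and 18.5% and 19.0% against Unloading. Myh11, the smooth muscle myosin, had 19.7 to 22.9 CPM in Control, 24.9 and 20.4 CPM in Unloading and 39.7 to 49.0 CPM in Reloading (log2 fold change 1.11 against Control, SE 0.10, adjusted p = 4.38e-07), beside 1.35 for Acta2. The defining marker Tagln was at 0.23 to 0.82 CPM in Control and Unloading and 1.69 to 2.46 CPM in Reloading, and Ramp1 fell from 41.8 to 19.6 CPM. The summed smooth muscle markers ran from 199 to 226 CPM in Control, 189.8 and 192 in Unloading and 239 to 267 in Reloading. In Unloading against Control only Smtn of this list was called, and it was lower (-0.50, adjusted p = 0.00826). There 4.40% of all tested genes were higher and 5.50% lower.

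Endothelial markers were higher in 6 of 7 cases in both Reloading comparisons (summed 164 to 194 CPM in Control, 166 and 167 in Unloading, 279.7 to 349 in Reloading). In Unloading against Control none was called higher, and Kdr (-1.04, adjusted p = 0.00304) and Vwf (-0.42, adjusted p = 0.0206) had the largest called falls. Macrophage and leukocyte markers were higher in 6 of 8 against Control and 7 of 8 against Unloading (54.4 to 66.3, 54.2 and 55.4, and 120.4 to 139 CPM). Of all tested genes, 22.1% were higher against Control and 18.5% against Unloading. Most of the rise in the macrophage sum was Cd68, which went from 2.57 to 45.9 CPM on average against Control. Lyz2 had 30.5 to 37.4 CPM in Control and 41.4 to 46.4 CPM in Reloading, and Csf1r 10.4 to 14.4 and 20.3 to 22.5 CPM. The skeletal fibre markers went the other way, with 7 of 9 lower in Reloading against Control, where 21.3% of all tested genes were lower. In Unloading against Control 3 of the 9 were lower and none higher, with a median log2 fold change of 0.05. There 5.50% of all tested genes were lower. The fibre markers summed to 128001 CPM on average in Control and 132001 CPM in Unloading. Fibroblast markers summed to 567 to 880 CPM in Control, 635 and 636 in Unloading and 772 to 1032 in Reloading. The 880 and 1032 were Control 2 and Reloading 1, the libraries with skin transcripts. Members of this list were divided. In Unloading against Control Dcn (0.59) and Pdgfra (0.63) were called higher and Col1a1 (-1.07) and Col3a1 (-0.71) lower. Reloading against Unloading had 3 of 7 higher, with Col1a1 (1.68) and Col3a1 (1.38), and 2 lower, Dcn (-0.49) and Pdgfra (-0.62). Pericyte markers summed to 558 to 618, 606 and 656, and 524 to 551 CPM in the same order of groups. Satellite cell markers summed to between 7.43 and 10.5 CPM in all libraries. The pericyte sum is mostly Rgs5 and Abcc9, both lower in Reloading against Unloading (-0.29, adjusted p = 0.0105, and -0.43, adjusted p = 0.00091), whereas the less abundant Cspg4 (1.37, adjusted p = 2.76e-05), Notch3 (0.73, adjusted p = 0.000303) and Pdgfrb (0.42, adjusted p = 0.00943) were higher. Of 3 tested satellite cell markers Vcam1 was higher (0.95, adjusted p = 0.00251, and 0.63 against Control, adjusted p = 0.0087). The part of these cells in the values of Acta2, Actb and Actg1 was not tested.

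For Actc1 the relevant markers are those of heart and of young fibres. Cardiac markers summed to 2.92 to 4.96 CPM in Control, 3.67 and 3.82 in Unloading and 5.32 to 5.79 in Reloading. Of the 2 tested, Myh6, a myosin of the heart, was higher in Reloading against Control (log2 fold change 0.86, adjusted p = 0.00142) and against Unloading (0.68, adjusted p = 0.0185), and Ryr2 passed in no comparison. The 8 embryonic and regenerating fibre markers summed to 48.3 to 54.1 CPM in Control, 50.9 and 53.0 in Unloading and 54.0 to 67.3 in Reloading. Of the 7 tested, 1 was lower in Unloading against Control: Myh3, the embryonic myosin, with 3.29 to 5.19 CPM in Control and at most 2.40 CPM in Unloading (log2 fold change -1.07, SE 0.25, adjusted p = 0.0159). None was called higher, but the median log2 fold change of the 7 was 0.18, against -0.0038 for all tested genes. Chrna1, which did not pass, had 6.88 to 9.92 CPM in Control and 13.0 and 11.1 CPM in Unloading. Against Unloading, Reloading had 3 higher and none lower, where 37.5% of all tested genes passed (18.5% higher). Among the 3 were Myh3 (0.87, SE 0.26, adjusted p = 0.0176) and Myog, the regulator of differentiating myoblasts (1.40, adjusted p = 0.00025). Reloading against Control had Myog (1.32, adjusted p = 6.08e-05) and Ncam1 (0.96, adjusted p = 0.00055) as the largest called rises of this list. None was called lower there, whereas Actc1 was lower (-0.86). In that comparison 22.1% of all tested genes were higher and 21.3% lower.

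The genes that act on actin were grouped by role. SRF and its coactivators come first, since the promoters above hold matches to the element. Srf itself had 96.2 CPM on average in Control, 79.2 in Unloading and 86.2 in Reloading and passed in no comparison (adjusted p = 0.0509, 0.314 and 0.0973 for Unloading against Control, Reloading against Unloading and Reloading against Control). Abra, a muscle protein that binds actin and raises SRF activity through its coactivators, rose from 172 to 413 CPM on reloading (1.27 on the log2 scale, SE 0.08, adjusted p = 5.55e-08). Mrtfa, the coactivator that senses free actin, rose from 33.1 to 59.5 CPM (0.84, SE 0.11, adjusted p = 5.50e-05), while Mrtfb had 47.0 and 42.9 CPM (adjusted p = 0.404). Of the 4 tested genes of this list, 2 were thus higher in both Reloading comparisons, and none passed in Unloading against Control. Of all tested genes, 18.5% were higher in Reloading against Unloading and 22.1% against Control.

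Genes that start filaments come next. Of 19 tested formins and other nucleators, 8 were higher and none lower in Reloading against Unloading (median log2 fold change 0.31), and the other 11 did not pass, a share that passed close to the 37.5% of all tested genes. Fhod3, a formin of the sarcomere, went from 53.0 to 116 CPM (1.13, adjusted p = 6.13e-07), and Spire1 from 11.2 to 20.9 CPM (0.90, adjusted p = 2.76e-05). Of the 9 members of the Arp2/3 complex, which starts branched filaments, 4 were higher, with Arpc1b from 18.6 to 35.3 CPM (0.92, adjusted p = 3.86e-05), and 1 lower, Arpc5l (-0.29, adjusted p = 0.00888).

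Of 18 tested genes for monomer binding and filament turnover, 11 were higher and 4 lower in Reloading against Unloading. Over all tested genes 18.5% were higher and 19.0% lower there, which also applies to the crosslinkers below. Cfl1, the cofilin of most non-muscle cells, rose from 22.9 to 50.8 CPM (log2 fold change 1.15, adjusted p = 5.92e-06), and Gsn, the severing protein gelsolin, fell by 0.79 (adjusted p = 1.03e-05). Of 27 tested crosslinkers and anchors, 20 were higher and 2 lower (median 0.81, the highest of these lists). They included Flnc, the filamin of muscle, from 638 to 8158 CPM (3.68, adjusted p = 3.32e-09), and Enah, which speeds filament growth, from 39.7 to 293 CPM (2.89, adjusted p = 1.12e-09). Actn3, the α-actinin of fast fibres, fell by 0.73 (adjusted p = 1.62e-05).

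The genes that set the length and ends of thin filaments were divided, with 7 of 16 higher and 7 lower in Reloading against Unloading. Beside this and the next lists, 18.5% of all tested genes were higher and 19.0% lower. Xirp1, which binds filaments at sites of remodelling, went from 126 to 2268 CPM (log2 fold change 4.17, adjusted p = 4.96e-09) and Klhl40, a protein that stabilises thin filament parts, from 121 to 569 CPM (2.23, adjusted p = 2.19e-07), while Tpm3 fell by 0.73 (adjusted p = 0.0312) and Tmod4, a cap of the pointed end, by 0.69 (adjusted p = 6.81e-06). Of 9 genes for actin folding and maturation none was higher and 5 were lower, among them Setd3, the enzyme that methylates an actin histidine (-0.41, adjusted p = 0.000755), and Pfdn5, a subunit of the prefoldin chaperone (-0.38, adjusted p = 0.000925). Of 9 tested actin-like proteins and actin pseudogenes, 1 was higher, Actr1b of the dynactin complex (0.67, adjusted p = 1.01e-05).

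Against Control, Reloading gave 10 higher and none lower of 19 tested nucleators, 4 and 1 of 9 in the Arp2/3 complex and 9 and 4 of 18 in turnover. It gave 20 and 2 of 27 among crosslinkers, 7 and 7 of 16 for the thin filament and 0 and 5 of 9 for folding. In the same comparison 43.5% of all tested genes passed (22.1% higher and 21.3% lower). The called genes with the largest change in some of these lists were Xirp1 (log2 fold change 4.31) and Klhl40 (2.67) of the thin filament, Flnc (3.48) and Enah (2.99) among crosslinkers and Cfl1 (1.20) and Coro1c (1.06) in turnover, and on the lower side Tpm2 (-1.05) and Capza2 (-0.66) of the thin filament, Coro6 (-0.65) and Scin (-0.46) in turnover, Pdlim7 (-0.52) and Rdx (-0.29) among crosslinkers, Arpc5l (-0.40) in the Arp2/3 complex, and, for folding, Vbp1 (-0.46) and Pfdn1 (-0.39). Unloading against Control touched few of these genes. None of the 9 Arp2/3 and 9 folding genes passed, 1 nucleator was higher (Inf2) and 1 lower (Fhod3, -0.36, adjusted p = 0.0200), Gsn was higher (0.59, adjusted p = 0.000941), among crosslinkers Actn3 was higher (0.61, adjusted p = 0.000595) and Vasp (-0.47, adjusted p = 0.0246) and Pdlim7 (-0.31, adjusted p = 0.0454) were lower, and Tpm2 fell by 0.77 (adjusted p = 0.000301) beside the -0.68 of Acta1. The share passing in those lists was near or under the 9.90% of all genes.

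**Figure D5:**
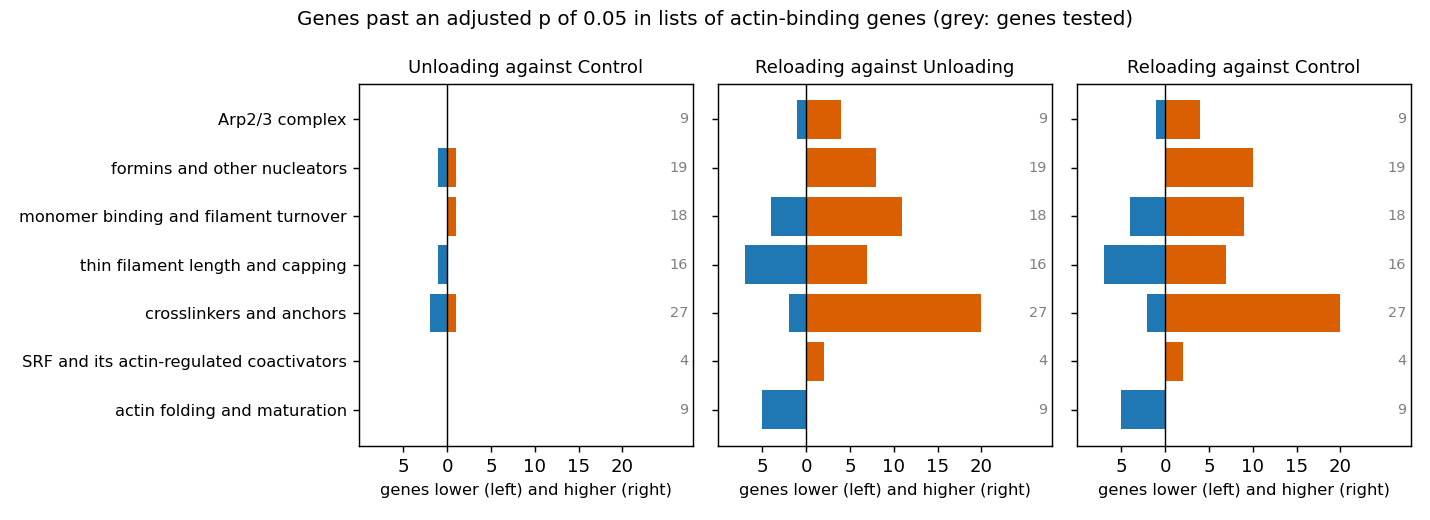
Horizontal bars count the genes of 7 lists of actin-binding and actin-regulating genes that were lower (left of 0) or higher (right) at an adjusted p of 0.05 in each comparison, with the number tested in grey. Bars are short for Unloading against Control, and the 27 crosslinkers and anchors have 20 higher genes in both Reloading comparisons.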

How the data were processed

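Whole gastrocnemius RNA was measured by sequencing of polyadenylated RNA (Illumina TruSeq libraries) in 9 libraries. The methods of the study describe single reads, whereas the labels say paired-end and pairs were counted. The authors aligned reads with STAR 2.7.3a to GRCm38.p6 and counted pairs over the exons of Ensembl genes, without regard to strand (featureCounts 2.0.3), and the raw counts were deposited without normalization. With the settings given there, pairs that align to several places or several genes were not counted, which lowers the values of genes with near-identical copies. The deposited DESeq2 tables hold the authors' mean signal, log2 fold changes with standard errors, p-values and adjusted p-values per comparison. From them only gene symbols were used here.

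Groups follow the sample labels. Genes needed a count of 10 in enough libraries for the smallest group and a total of 15 (edgeR's filterByExpr), which kept 14851 of the 34376 genes with any count. All 3 comparisons were fitted together with edgeR 4.0.16 in R 4.3.3 (TMM scaling, quasi-likelihood test, Benjamini-Hochberg adjustment, threshold 0.05). The common biological coefficient of variation was 0.0927, and 95% intervals use 6 residual degrees of freedom. Log2 CPM carries a prior count of 2. Shares were compared by exact two-sided permutation tests over libraries. The fit was first tested on simulated data. Depth, 9252443 to 19612101 pairs in genes, makes 1 pair worth 0.0510 to 0.108 CPM.

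Actin relatives were found with blastn 2.17.0 in GENCODE M21 transcripts, and promoter sequences are from RefSeq. The members and gene lists were chosen with earlier results of these data known. Genes named are the 6 actins, the 3 genes nearest to each over the 9 libraries, genes overlapping or resembling an actin, and, per list and comparison, up to 2 called genes with the largest change in each direction. Any other gene named was chosen after its values were seen.

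Control and Reloading libraries that share a number in the sample descriptions had correlations of their deviations of 0.361, 0.142 and 0.155. With Unloading libraries they were at most 0.0752. The 0.361 was between Control 2 and Reloading 1, the libraries with skin transcripts. Whether these numbers mark pairs was not tested, and where they come from is not stated in the labels. Control and Reloading libraries that share a number in the titles had correlations of -0.191, -0.201 and -0.0165. Alternatives were other scalings, no filter, DESeq2 1.42.0, a robust fit, only the 2 groups compared, replicate blocks, and leaving out libraries. Within groups the libraries differed by more than sampling noise (chi-square per degree of freedom 3.71 to 8.74), so none was counted as a duplicate.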

Additional observations from a re-analysis of the deposited data

Results flagged for a closer look

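Of 39 sets of 4 Control libraries tested with Dixon's gap-to-range ratio, 5 were above its 95% critical value, and chance alone gives about 1 in 20. The CPM of Acta2 was 24.5 in Control 2 against 20.2 to 20.8 in the other Control libraries (ratio 0.848), and Control 2 also held the skin markers, at 296 CPM against 3.00 to 4.29 (ratio 0.996). Without the skin libraries the fitted values of Acta2 kept their direction and their side of the threshold in all comparisons.

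The share of Acta2 in the actin pairs was lowest in Control 3, at 0.0689% against 0.0767% to 0.0776% (ratio 0.899), and the share of Actb was lowest in Control 4, at 0.740% against 0.837% to 0.844% (ratio 0.927). With Acta1 left out, the share of Actg1 was highest in Control 3, at 10.5% against 9.69% to 9.79% (ratio 0.889). All 3 departures were smaller than the gaps to the Reloading libraries.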

How the results depend on the processing

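Of 324 alternative values of the actins' log2 fold changes, 319 kept their direction and their side of the threshold. With library totals only, Acta1 in Reloading against Unloading was 0.10 (adjusted p = 0.369), a reversed sign that follows from a scale on which the median of all genes moves to 0.27, and Actg2 in Reloading against Control was -0.37 (adjusted p = 0.0868). With a robust fit Actc1 in Reloading against Control was -0.86 (adjusted p = 0.0542), and the cause was not tested. Leaving out 1 library gave 0.39 to 1.17 for Actg2 in Reloading against Unloading, and the call was lost without Unloading 1 or without Reloading 1, leaving 4 of 6 actins called there. All tested genes called in Unloading against Control numbered 1470. With 1 library left out they numbered 121 to 1518 (121 without Unloading 1 and 949 without Control 3). Leaving out either Unloading library leaves 1 in that group, whose spread is taken from the other groups. Why the number was lowest without Unloading 1 was not tested.

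With Acta1 left out of the sum, the changes of share turned to -8.13 percentage points for Actb and -1.72 for Actg1 in Reloading against Unloading and to -0.53 for Actg2 in Reloading against Control, values on another total than the main one, and the cause was not tested. With 1 library left out, the Actc1 share in Reloading against Control changed by -0.27 to 0.11 percentage points. The pseudogenes were counted under settings chosen after seeing the data. With 1 library left out, 3 to 9 of 12 were higher in Reloading against Unloading, 3 to 9 lower in Unloading against Control and 3 to 5 lower in Reloading against Control, and 3 of each of the former pair came without Unloading 1 and the 5 without Control 4.

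With a replicate block, by description number or by title number, 5, 3 and 6 actins were called in Reloading against Unloading, Unloading against Control and Reloading against Control, as without it, and among all genes 4902, 1479 and 6632 (description) or 5108, 1042 and 5705 (title). Pseudogenes lower in Reloading against Control numbered 5 under the title block. No other call on the actins changed with a block. Of 1872 alternative values of other named genes, 95 lost their call and none changed sign. With 42 to 167 pairs per library, Actg2 is the member whose values depth limits most.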
